A study of Mus musculus with 6 samples.

Results

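The 31 genes described here encode the enzymes that build cholesterol and fatty acids from acetyl-CoA, together with the factors that set the level of those enzymes. They were taken by name from the pathway, not by their values. In the probe annotation 28 of the 31 were found under a current or older symbol, each with 1 probe, and 27 had a value on all 6 arrays and were tested, among 14545 genes with a tested probe (20434 tested probes of 23466). Acat2, Hmgcs1 and Fdps had no probe by that match and were not analysed here. Pmvk, the phosphomevalonate kinase, was blank on wild-type array 1 and read between 1.9 and 2.8 elsewhere, so it was not tested.

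RNA came from neural stem cells of the brain of C57BL6 mice at P0, the day of birth, cultured without treatment in a DMEM/F12 medium that held heparin, EGF and bFGF. Arrays carried the genotype labels Ecrg4 homo (homozygous), Ecrg4 hetero (heterozygous) and Ecrg4 wt (wild type), 2 arrays each; Ecrg4 encodes a small secreted protein. The labels state neither how the allele was altered nor whether the 2 arrays of a label stem from different animals or cultures. P-values therefore reflect array-to-array spread alone, and that spread may be technical. Values are 1-colour intensities in array units, with the same median of 30 on every array.

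The Ecrg4 probe read 1.4 and 1.3 on the homozygous arrays, 345.5 and 373.9 on the heterozygous and 112.9 and 154.9 on the wild-type arrays. The homozygous label thus matched the probe, but the heterozygous arrays read above the wild-type ones, so directions that involve heterozygous or wild type hold for the labels as given. Which stretch of Ecrg4 the probe covers is not stated. As a reference for background, the 95th percentile of 663 olfactory receptor probes lay between 50.5 and 57.6 on the 6 arrays. All 27 tested genes read above it on all 6 arrays, with a lowest value of 94.6. Of 10 measured stem and progenitor markers 9 exceeded it on all 6 arrays, Prom1 being the exception, and Sox2 had no probe. Notch1 alone of the 10 had a limma adjusted p under 0.05, between homozygous and heterozygous, where 2.69% of all tested probes did. Its difference there was -0.81 ± 0.14 log2 (adjusted p = 0.045), and that of Nes 0.73 ± 0.16 (adjusted p = 0.0782). Over the 10 markers 3 differences lay above 0 and 7 below. Of the listed markers of microglia, fibroblasts and endothelium none exceeded the olfactory receptor level on all 6 arrays. Of the oligodendrocyte lineage Olig1, Olig2 and Cnp did, Mbp and Pdgfra exceeded it on some arrays, and Mag, Mobp, Ugt8a, Sox10 and Cspg4 on none, Mobp being blank on 1. Among 7 measured neuron markers Gap43 alone exceeded it on all 6 arrays, and the other 6, Tubb3 and Dcx among them, stayed below it throughout. Gap43 read 4809 and 4796 in homozygous, 3782 and 5139 in heterozygous and 1758 and 1779 in wild-type arrays. Its difference was 1.44 ± 0.19 log2 in homozygous minus wild type (limma adjusted p = 0.0354) and 1.32 ± 0.19 in heterozygous minus wild type (adjusted p = 0.0464). In homozygous minus heterozygous the Gap43 difference was 0.12 ± 0.19 (adjusted p = 0.53). RNA was measured in bulk, so fewer cells of a type and less RNA per cell cannot be told apart. The part of Gap43, Notch1 and Nes in the lipid gene results was not tested.

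Cholesterol is made by condensing acetyl-CoA to mevalonate, turning mevalonate into isoprenoid units that are joined to squalene, and closing squalene into the ring that later enzymes trim to cholesterol. Fatty acids are made from the same acetyl-CoA by carboxylation and chain building, followed by desaturation and elongation. Both arms are switched on by the SREBP transcription factors, which Insig proteins hold back in the endoplasmic reticulum when sterols are plentiful. The brain makes nearly all of its own cholesterol, and dividing neural progenitors need it for new membrane.

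The 27 genes did not share 1 direction over the Ecrg4 genotypes, and 1 of them passed the test. Tm7sf2, a sterol reductase of the late cholesterol pathway, fell 2.03-fold in homozygous against wild-type arrays. It was 1 of 27 tested genes (3.7%) past an adjusted p of 0.05 in limma, against 0.92% of all tested probes in that comparison and 0.489% in that direction. At an unadjusted p under 0.05, 5 genes were higher (Idi1, Insig1, Acly, Elovl6 and Mvk), against 9.58% of all probes, and 2 lower (Tm7sf2 and Acaca), against 9.45%. None of the 27 passed between heterozygous and wild type, where 0.749% of all probes did and 0.338% were lower. There 2 genes were higher at an unadjusted p under 0.05 (Idi1 and Srebf1), against 6.17% of all probes, and 2 lower (Tm7sf2 and Cyp51), against 7.3%. Between homozygous and heterozygous none passed either, against 2.69% of all probes. At an unadjusted p under 0.05, 5 of 27 were higher, against 9.25%, and 5 lower, against 8.9%. The F test over the 3 genotypes called 1 of 27, again Tm7sf2, against 2.26% of all probes. The median log2 fold change of the 27 genes was 0.08 in homozygous minus wild type, 0.04 in heterozygous minus wild type and 0.05 in homozygous minus heterozygous. Over all tested probes the same medians were 0.02, -0.01 and 0.04.

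For most of the genes a 2-fold difference lay outside the interval. Standard errors of the 27 log2 fold changes lay between 0.14 and 0.25, and for 22 genes the 95% interval of homozygous minus wild type stayed within 2-fold in both directions. It reached past 2-fold for Tm7sf2, Idi1, Acly, Insig1 and Ebp. The interval stayed within 2-fold for 25 genes in heterozygous minus wild type, all but Srebf1 and Ebp. It did so for 23 genes in homozygous minus heterozygous, all but Acly, Cyp51, Scd1 and Srebf1. In an analysis that left out probes under the olfactory receptor level, fewer probes shared the correction and 5, 1 and 4 of the 27 genes passed in the 3 comparisons, against 8.9%, 2.07% and 10.2% of the 9538 probes then tested. The added ones were Idi1, Insig1, Acly and Acaca between homozygous and wild type, Srebf1 between heterozygous and wild type, and Cyp51, Fads1, Insig1 and Srebf1 between homozygous and heterozygous. An intensity-dependent prior gave 5, 2 and 4 of 27, against 5.35%, 1.96% and 6.64% of all probes, and adding a pseudocount of 16 gave 5, 2 and 5, against 5.59%, 1.5% and 6.73%. The F test then gave 7 and 6, against 7.74% and 7.31%.

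**Figure D1:**
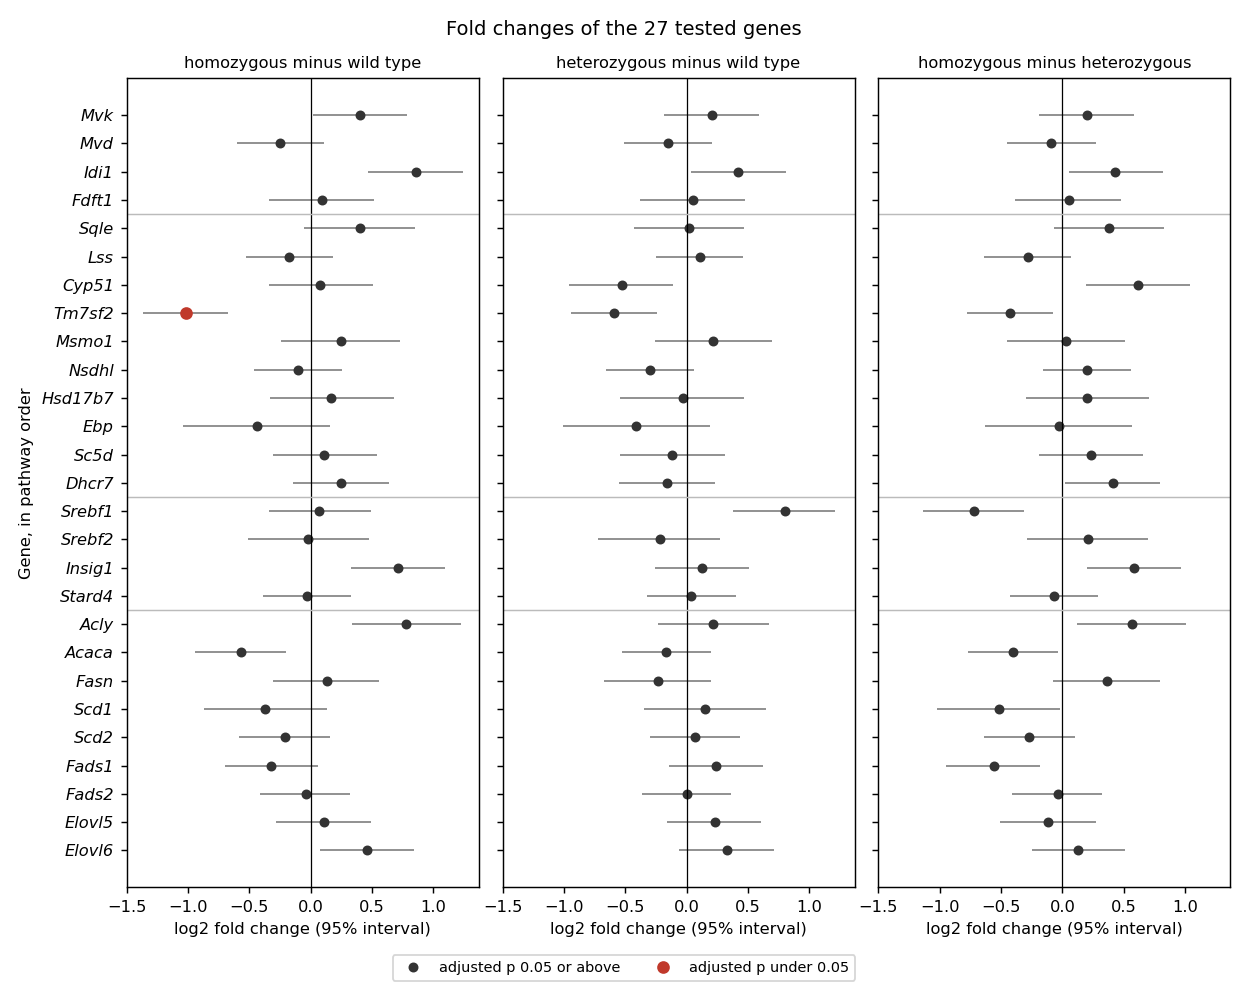
Log2 fold changes of the 27 tested genes (points) with 95% intervals of the limma fit (bars), in pathway order from mevalonate enzymes at the top to fatty acid enzymes at the bottom, for the 3 comparisons. Tm7sf2, at -1.02 in homozygous minus wild type, is the marked point past an adjusted p of 0.05; most other points lie within 0.5 of 0.

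A small set of genes ran in 1 order over the 3 labels with no overlap between arrays. Mvk, Idi1, Insig1 and Acly were highest in homozygous, intermediate in heterozygous and lowest in wild-type arrays, 4 of 27 (14.8%), against 3.6% of all tested probes. Tm7sf2 and Acaca ran the other way, 2 of 27 (7.41%), against 3.56% of all probes. Heterozygous arrays lay above both other labels for Srebf1, Fads1 and Lss, 3 of 27 (11.1%), against 11.1% of all probes, and below both for Cyp51, Dhcr7 and Nsdhl, also 3 of 27, against 10.7%. In homozygous against wild type 7 genes lay higher without overlap (25.9%, against 25.7% of all probes) and 9 lower (33.3%, against 24.8%). Heterozygous against wild type gave 10 higher (37.0%, against 21% of all probes) and 7 lower (25.9%, against 24.5%). Homozygous against heterozygous gave 11 higher (40.7%, against 28.7% of all probes) and 8 lower (29.6%, against 25.9%). These counts were made after the values were seen, and apart from Tm7sf2 no member of them passed the test. All 27 genes read above the olfactory receptor level on all 6 arrays, whereas 40.1% to 42.4% of the probes of an array did. The shares over all probes are thus not shares over probes of like brightness, which were not counted for these orders.

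The promoters of Idi1, Mvk, Insig1 and Tm7sf2 are shown because they are the 4 of the 6 genes in order over the 3 labels whose start regions hold a CCAAT box. The box decided which were shown, and Acly and Acaca, the other 2, have none. Each line gives the 250 bases before the RefSeq transcript start, 5′ to 3′ on the strand of the gene, in build GRCm38.p6. Capitals mark CCAAT or its reverse complement ATTGG, the core of the box bound by NF-Y, a factor that works beside SREBP at many sterol gene promoters.
Idi1 (chr13:8885356-8885605, plus strand): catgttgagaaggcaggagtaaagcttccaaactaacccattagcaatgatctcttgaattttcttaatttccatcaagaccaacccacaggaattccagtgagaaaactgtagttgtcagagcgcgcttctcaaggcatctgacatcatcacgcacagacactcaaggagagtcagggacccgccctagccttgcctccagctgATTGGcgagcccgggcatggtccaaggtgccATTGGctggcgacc
Mvk (chr5:114444019-114444268, plus strand): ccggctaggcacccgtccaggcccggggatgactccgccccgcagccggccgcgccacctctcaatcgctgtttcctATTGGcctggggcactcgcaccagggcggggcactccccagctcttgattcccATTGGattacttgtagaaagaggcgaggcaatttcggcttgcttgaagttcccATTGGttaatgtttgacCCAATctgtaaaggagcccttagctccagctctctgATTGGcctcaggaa
Insig1 (chr5:28071162-28071411, plus strand): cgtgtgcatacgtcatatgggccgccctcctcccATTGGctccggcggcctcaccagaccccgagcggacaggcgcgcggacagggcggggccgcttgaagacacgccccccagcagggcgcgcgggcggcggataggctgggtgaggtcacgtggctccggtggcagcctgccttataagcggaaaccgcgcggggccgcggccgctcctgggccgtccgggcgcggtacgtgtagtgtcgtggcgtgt
Tm7sf2 (chr19:6067851-6068100, minus strand): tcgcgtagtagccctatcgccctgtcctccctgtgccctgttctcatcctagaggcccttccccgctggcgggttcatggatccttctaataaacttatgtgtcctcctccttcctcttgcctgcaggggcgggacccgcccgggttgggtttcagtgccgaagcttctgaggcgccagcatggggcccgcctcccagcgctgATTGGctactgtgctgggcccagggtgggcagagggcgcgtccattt

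Promoter windows were listed for 24 of the 31 genes. At least 1 CCAAT match on either strand was present for 19 of the 24, and in 20 of their 29 windows, against 33.8% of all 32851 windows of that length. The number of matches in the best window was 5 for Mvk, 3 each for Fasn, Hmgcs1, Hsd17b7 and Msmo1, 2 for Idi1 and 1 each for Insig1 and Tm7sf2. Besides Acly and Acaca, Acat2, Elovl6 and Fads2 had none. Genes with and without a match were thus found among both those that ran upward and those that ran downward from wild type to homozygous. The sterol element written as TCACNCCAC was found for Hmgcs1 alone of the 24, against 1.05% of all windows. The Sp1 box GGGCGG matched for 19 genes, in 21 of 29 windows, against 32.7% of all windows, and the E-box CANNTG for 14 genes, in 18 of 29 windows, against 66.2%. CCAAT matches overlapped an E-box for Fasn and Hmgcs1 and overlapped no Sp1 box or TCACNCCAC match in these windows. Motifs were searched on both strands, a match is a run of letters and not a site, and some genes have more than 1 window.

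The early cholesterol enzymes were considered next. Idi1, the isopentenyl diphosphate isomerase that makes the building block for chain joining, read 1628 and 1687 in homozygous, 1309 and 1149 in heterozygous and 849.8 and 985.2 in wild-type arrays. Every homozygous array exceeded every heterozygous one, and every heterozygous array exceeded every wild-type one. Its log2 fold change was 0.86 ± 0.16 in homozygous minus wild type (SE, n = 2 arrays each, limma adjusted p = 0.0746), a fold of 1.81 with a 95% interval of 1.39 to 2.37. It passed in 5 of 16 alternatives, quantile normalization (adjusted p = 0.0432) and cyclic loess (0.0421) among them, with adjusted p between 0.00651 and 0.360 over all 16. Between heterozygous and wild type the difference of Idi1 was 0.42 ± 0.16 (adjusted p = 0.336), and between homozygous and heterozygous it was 0.43 ± 0.16 (adjusted p = 0.229).

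Mvk, the mevalonate kinase, read 347.4 and 341.3 in homozygous, 297.5 and 302.6 in heterozygous and 236.3 and 286.7 in wild-type arrays. The order was the same as for Idi1, with a smaller difference of 0.40 ± 0.16 log2 in homozygous minus wild type (limma adjusted p = 0.246). Mvd, the decarboxylase that follows the mevalonate kinases, read 595.1 and 668.2 in homozygous, 693.7 and 652.3 in heterozygous and 735.2 and 760.1 in wild-type arrays, a difference of -0.25 ± 0.15 between homozygous and wild type (adjusted p = 0.408). Neither Mvk nor Mvd passed the test, and the 95% interval of Mvd, -0.60 to 0.11, included 0. Fdft1, the squalene synthase, read between 948.3 and 1252 on all arrays, its lowest and highest values both homozygous. Over the 4 tested enzymes of this arm the median log2 fold change was 0.25 in homozygous minus wild type, 3 above 0 and 1 below, with none past the test.

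The enzymes from squalene to cholesterol held the called gene. Tm7sf2 read 1231 and 1320 in homozygous, 1785 and 1647 in heterozygous and 2547 and 2621 in wild-type arrays, with no overlap between labels. Its log2 fold change was -1.02 ± 0.14 in homozygous minus wild type (SE, n = 2 arrays each, limma adjusted p = 0.0445), a fold of 0.493 with a 95% interval of 0.387 to 0.629. It was -0.59 ± 0.14 in heterozygous minus wild type (adjusted p = 0.192) and -0.43 ± 0.14 in homozygous minus heterozygous (adjusted p = 0.197). The call was a narrow one, and Tm7sf2 passed in 7 of 16 alternatives. An intensity-dependent prior (adjusted p = 0.00154), a pseudocount of 16 (0.0039) and dim probes left out (0.00499) were among the 7. Leaving out any 1 of the 6 arrays ended the call, in fits with 1 array left in a label. So did a fit of only the arrays compared (0.103), the replicate number as a block (0.112) and testing probes blank on some arrays as well (0.0636). The log2 fold change itself stayed between -1.07 and -0.94 over all 16 alternatives. Lbr, a nuclear membrane protein that carries the same sterol reductase activity, read 160.8 and 213.2 in homozygous, 183.8 and 234.9 in heterozygous and 168.2 and 181.6 in wild-type arrays. The homozygous Lbr arrays overlapped those of both other labels, with a difference of 0.08 ± 0.21 log2 in homozygous minus wild type (adjusted p = 0.858). Both heterozygous Lbr arrays lay above both wild-type ones, a difference of 0.25 ± 0.21 log2 (adjusted p = 0.591).

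Cyp51, the lanosterol demethylase whose product Tm7sf2 reduces, showed another order. It read 1263 and 1493 in homozygous, 990.0 and 811.5 in heterozygous and 1340 and 1254 in wild-type arrays. The heterozygous arrays were the low ones, and homozygous and wild type overlapped. The difference of Cyp51 was 0.62 ± 0.18 log2 in homozygous minus heterozygous (limma adjusted p = 0.141) and -0.53 ± 0.18 in heterozygous minus wild type (adjusted p = 0.297). Sqle, the squalene epoxidase and a flux-controlling step, read 1860 and 2358 in homozygous, 1503 and 1718 in heterozygous and 1480 and 1701 in wild-type arrays. Both homozygous arrays of Sqle lay above all others, at 0.40 ± 0.19 log2 over wild type (adjusted p = 0.305).

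No other enzyme of this arm passed the test. Dhcr7, the reductase that makes cholesterol in the last step of one branch, read 122.8 and 143.2 in homozygous, 94.6 and 105.5 in heterozygous and 107.7 and 115.6 in wild-type arrays, or 0.41 ± 0.16 log2 in homozygous minus heterozygous (limma adjusted p = 0.253). Ebp, the sterol isomerase, had the widest replicate gap, 757.4 and 459.9 in the heterozygous pair, against 794.7 and 774.2 in wild type. Ebp read 559.6 and 597.7 in homozygous arrays, below both wild-type arrays (-0.44 ± 0.25 log2, adjusted p = 0.380). Lss, the cyclase that closes the sterol ring, and Nsdhl and Msmo1, which remove methyl groups, had log2 fold changes between -0.18 and 0.25 in homozygous minus wild type. Hsd17b7 and Sc5d, a sterol ketone reductase and a sterol desaturase, gave 0.17 and 0.11. Over the 10 enzymes from Sqle to Dhcr7 the median was 0.10 in homozygous minus wild type, with 1 past the test, -0.14 in heterozygous minus wild type and 0.20 in homozygous minus heterozygous, with none past it in the last 2 comparisons.

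**Figure D2:**
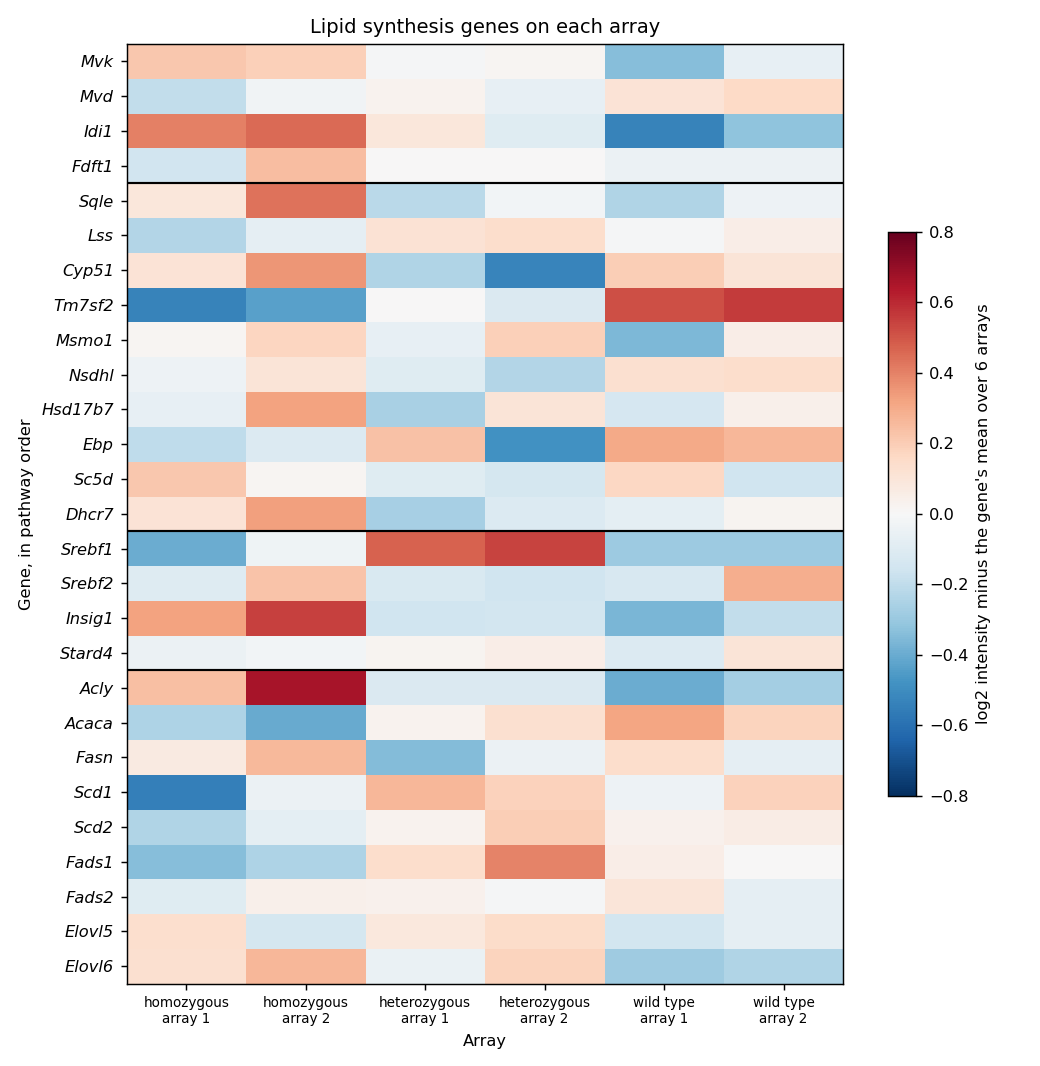
Log2 intensity of each of the 27 genes (rows, pathway order, lines between the arms) on each array (columns), minus the mean of that gene over the 6 arrays. Tm7sf2 is low in homozygous and high in wild-type arrays, Idi1, Insig1 and Acly the reverse, and Srebf1 is high in both heterozygous arrays.

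Among the regulators Srebf1 and Insig1 varied and Srebf2 and Stard4 varied less. Srebf1, which encodes the SREBP that favours fatty acid genes, read 163.4 and 209.6 in homozygous, 298.9 and 312.3 in heterozygous and 175.6 and 175.9 in wild-type arrays. Both heterozygous arrays stood above all 4 others. The Srebf1 difference was 0.80 ± 0.17 log2 in heterozygous minus wild type (limma adjusted p = 0.146), a fold of 1.74 with a 95% interval of 1.30 to 2.32. In homozygous minus heterozygous it was -0.72 ± 0.17 (adjusted p = 0.0964), and in homozygous minus wild type 0.07 ± 0.17 (adjusted p = 0.845). Srebf1 passed in heterozygous minus wild type in 3 of 16 alternatives, a pseudocount of 16 (adjusted p = 0.0371), the intensity-dependent prior (0.0254) and dim probes left out (0.0446), over a range of 0.0254 to 0.513. Srebf2, whose SREBP favours cholesterol genes, read 132.3 and 166.2 in homozygous, 130.1 and 126.9 in heterozygous and 129.7 and 173.2 in wild-type arrays, and its 3 log2 differences lay between -0.22 and 0.21.

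Several astrocyte markers also read highest in the heterozygous arrays, as Srebf1 did. Over the 6 listed markers the median log2 fold change was 0.84 in heterozygous minus wild type and -0.74 in homozygous minus heterozygous. These medians include Aldh1l1 and Gfap, which read under the olfactory receptor level on all 6 arrays. None of the markers passed the test in the first comparison, against 0.749% of all tested probes. Aqp4 alone passed in the second (limma adjusted p = 0.0333), against 2.69% of all tested probes. The water channel Aqp4 read 14.3 and 8.0 in homozygous, 66.8 and 45.5 in heterozygous and 10.2 and 16.2 in wild-type arrays, above the olfactory receptor level on 1 of the 6 arrays, and Gfap, the defining filament, stayed between 3.6 and 7.3, under it. S100b, a calcium-binding protein above that level on all 6 arrays, read 196.9 and 139.4 in homozygous, 356.0 and 337.5 in heterozygous and 147.7 and 220.9 in wild-type arrays (0.94 ± 0.26 log2 in heterozygous minus wild type, limma adjusted p = 0.236). Gja1, a gap junction protein also above it throughout, read 1940 and 1826 in homozygous, 2917 and 2925 in heterozygous and 1361 and 1860 in wild-type arrays (0.88 ± 0.19 log2, adjusted p = 0.146). For both, the heterozygous arrays stood above all others. Aldoc, the brightest of the list, went the other way from wild type. It read 6291 and 5544 in homozygous, 5614 and 5599 in heterozygous and 8372 and 8891 in wild-type arrays. Its difference was -0.62 ± 0.15 log2 in heterozygous minus wild type (limma adjusted p = 0.183). The summed intensity of the list, set mostly by Aldoc, was 7543 to 8465 in homozygous, 8938 to 9009 in heterozygous and 9918 to 11014 in wild-type arrays. The part of these markers in the Srebf1 result was not tested.

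Insig1, the SREBP anchor that is itself an SREBP target, read 283.3 and 331.7 in homozygous, 203.6 and 205.3 in heterozygous and 176.1 and 198.4 in wild-type arrays. The homozygous pair stood apart from the other 4 arrays. The Insig1 difference was 0.71 ± 0.16 log2 in homozygous minus wild type (limma adjusted p = 0.106), a fold of 1.64 with a 95% interval of 1.26 to 2.14, and 0.58 ± 0.16 in homozygous minus heterozygous (adjusted p = 0.130). Stard4, a sterol carrier protein, read between 280.3 and 324.1 on all arrays, with differences of at most 0.07 in size. Insig1 and Idi1, both SREBP targets, were thus high in the homozygous pair while Srebf1 and Srebf2 were not, and none of these differences passed. The list as a whole did not follow these 2 genes. In homozygous minus wild type 15 of the 27 log2 fold changes lay above 0 and 12 below, with a median of 0.08.

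None of the 9 fatty acid genes passed the test in any of the 3 comparisons. Acly, which cleaves citrate to supply cytosolic acetyl-CoA to both arms, read 200.6 and 268.5 in homozygous, 156.7 and 156.9 in heterozygous and 129.0 and 140.9 in wild-type arrays. The homozygous arrays were highest, with a wider gap between them than in either other pair, and the Acly difference from wild type was 0.78 ± 0.19 log2 (limma adjusted p = 0.116). Acaca, the acetyl-CoA carboxylase of the committed step, read 706.2 and 634.2 in homozygous, 854.4 and 917.8 in heterozygous and 1042 and 949.0 in wild-type arrays. Its order was the reverse of that of Acly, with a difference of -0.57 ± 0.15 log2 in homozygous minus wild type (adjusted p = 0.137). The consecutive enzymes Acly and Acaca therefore stood at opposite ends of the fatty acid genes in that comparison. Fasn, the fatty acid synthase, read 595.8 and 679.1 in homozygous, 445.8 and 550.4 in heterozygous and 625.4 and 541.7 in wild-type arrays, with overlap between homozygous and wild type and a difference of 0.13 ± 0.18 (adjusted p = 0.732).

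None of the 4 desaturases passed the test. Fads1, Scd1 and Scd2 read lowest in the homozygous arrays, and Fads2 overlapped between all labels. Fads1, which desaturates long polyunsaturated chains, read 1718 and 1835 in homozygous, 2403 and 2864 in heterozygous and 2257 and 2182 in wild-type arrays. The homozygous arrays lay lowest and the heterozygous highest, a difference of -0.56 ± 0.16 log2 between them (limma adjusted p = 0.137). Scd1, a stearoyl-CoA desaturase, read 2130 and 3000 in homozygous, 3726 and 3527 in heterozygous and 3017 and 3532 in wild-type arrays, with a 1.41-fold gap inside the homozygous pair. Scd2, the desaturase best known from brain, read 10796 and 12092 in homozygous, 13039 and 14635 in heterozygous and 13050 and 13325 in wild-type arrays. Its homozygous arrays were the lowest, by 0.21 ± 0.15 log2 against wild type (adjusted p = 0.497). Scd1 and Scd2 are paralogs, and cross-reading of their probes was not tested. Fads2, which acts beside Fads1, read between 344.3 and 393.0 on all arrays. The elongases Elovl5 and Elovl6 read 3380 and 2792, and 412.5 and 455.3, in homozygous arrays, against 2784 and 2928, and 310.7 and 320.1, in wild-type arrays. Elovl6, which lengthens saturated chains, gave 0.46 ± 0.16 log2 there (adjusted p = 0.201). Over the 9 fatty acid genes the median log2 fold change was -0.04 in homozygous minus wild type, 0.15 in heterozygous minus wild type and -0.12 in homozygous minus heterozygous, with none past the test.

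**Figure D3:**
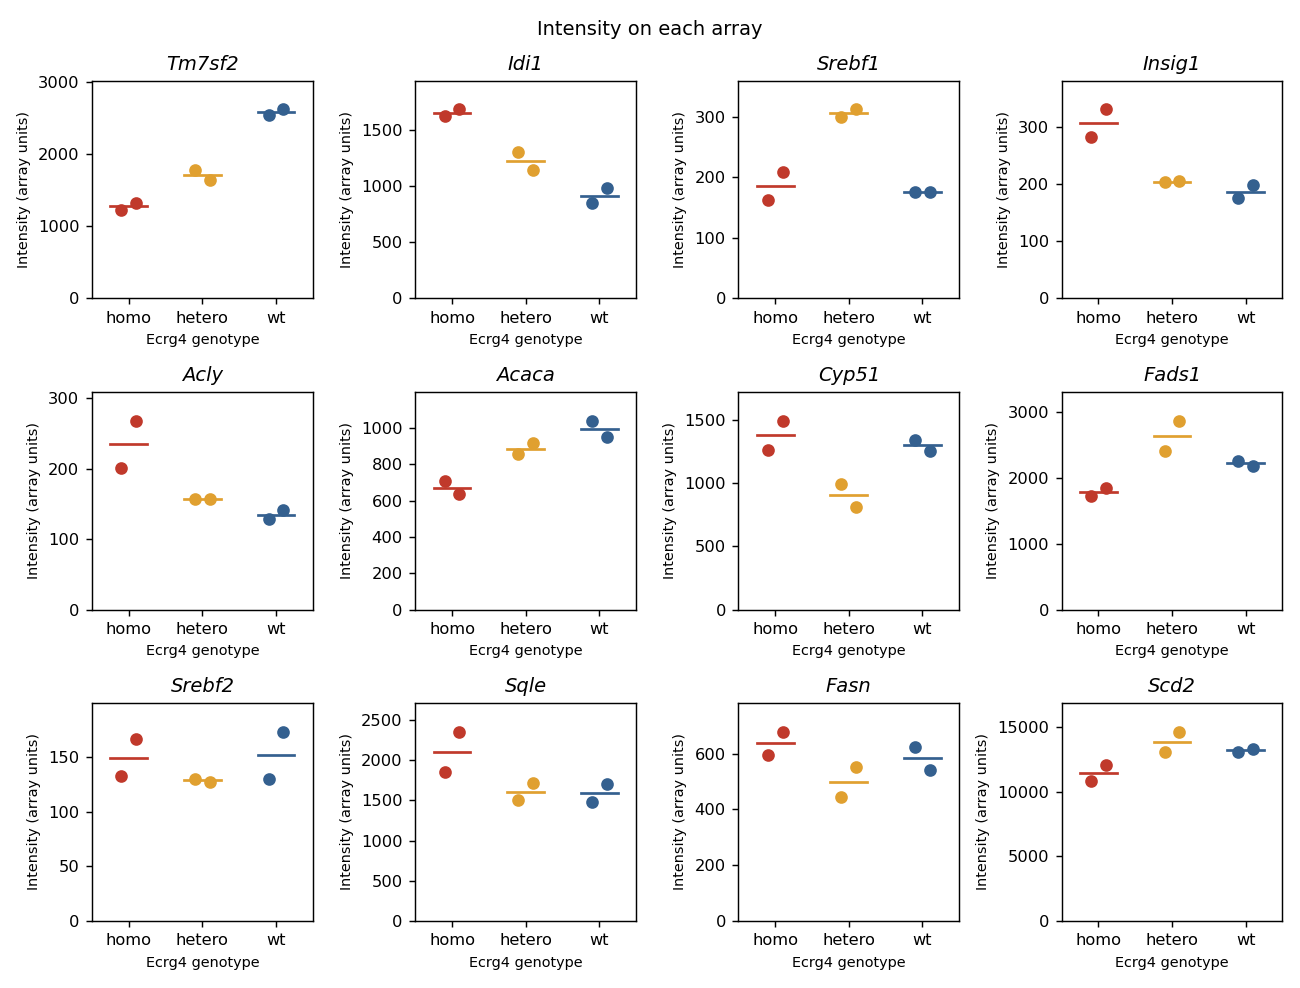
Intensity on each array (points) and mean of the 2 arrays (lines) for the 8 genes with the highest F statistic over the 3 genotypes, and for Srebf2, Sqle, Fasn and Scd2, in homozygous (homo), heterozygous (hetero) and wild-type (wt) cells; axes start at 0. Tm7sf2 and Acaca step up and Idi1, Insig1 and Acly step down toward wild type, while Srebf1 and Fads1 peak and Cyp51 dips in heterozygous arrays.

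The spread inside each pair bears on these differences. Between the 2 arrays of a label the median fold over the 27 genes was 1.12 in homozygous, 1.07 in heterozygous and 1.09 in wild type. The widest gaps were 1.41-fold for Scd1, 1.65-fold for Ebp and 1.34-fold for Srebf2 in the same order of labels. In the homozygous pair 23 of 27 genes (85.2%) read higher on array 2, by a median of 0.16 log2, against 55.4% of the 6849 probes at least as bright as the dimmest of the 27. The heterozygous pair had 16 of 27 (59.3%) higher on array 2, against 42% of those probes, and the wild-type pair 20 of 27 (74.1%), against 66.1%. The median log2 fold change of homozygous minus wild type was accordingly 0.15 without homozygous array 1 and -0.04 without homozygous array 2.

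The other genes of the pathway were taken as 3 lists, sterol and isoprenoid enzymes, SREBP control with further SREBP and LXR targets, and fatty acid genes. Of their 67 genes 60 had a probe and 58 were tested, 30 of them above the olfactory receptor level on all 6 arrays and 21 below it throughout. None of the 58 passed between homozygous and wild type or between heterozygous and wild type. Between homozygous and heterozygous 4 of 58 passed, Pdss1 and Elovl2 higher and Lpin1 and Elovl7 lower, against 2.69% of all tested probes.

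Lpin1, a phosphatidate phosphatase of glycerolipid synthesis and an SREBP target, read 44.0 and 44.4 in homozygous, 136.6 and 143.2 in heterozygous and 81.2 and 90.9 in wild-type arrays. The labels did not overlap, and the homozygous arrays lay under the olfactory receptor level. Lpin1 fell by 1.66 ± 0.15 log2 in homozygous against heterozygous arrays (limma adjusted p = 0.00747), and taking that level in place of the homozygous values it was at least 2.60-fold lower. Lpin1 passed there in 12 of 16 alternatives. Leaving out any homozygous or heterozygous array ended the call, in fits with 1 array left in a label, where far fewer probes were called. The log2 fold change stayed between -1.70 and -1.63 in those fits. In homozygous minus wild type Lpin1 gave -0.96 ± 0.15 (adjusted p = 0.0518), which passed in 6 of 16 alternatives. With the homozygous values under the olfactory receptor level, the measured bound there was at least 1.6-fold lower.

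Elovl7, a fatty acid elongase, read 17.3 and 11.1 in homozygous, 60.3 and 60.3 in heterozygous and 32.9 and 54.2 in wild-type arrays. It fell by 2.12 ± 0.30 log2 in homozygous against heterozygous arrays (limma adjusted p = 0.0273), but with the homozygous arrays at the olfactory receptor level the measured bound was at least 1.12-fold lower. Elovl2, which lengthens very long polyunsaturated chains, read 207.7 and 219.2 in homozygous, 118.6 and 123.0 in heterozygous and 139.6 and 146.2 in wild-type arrays. Elovl2 rose by 0.82 ± 0.14 log2 over heterozygous (adjusted p = 0.0438), a fold of 1.77, and stood 0.58 ± 0.14 above wild type (adjusted p = 0.121). Pdss1, a subunit of the enzyme for the coenzyme Q side chain, rose by 0.99 ± 0.16 log2 (adjusted p = 0.0385) but read between 8.3 and 19.1 on all arrays, under the olfactory receptor level. The calls of Elovl7, Elovl2 and Pdss1 each ended with the replicate number as a block, where 1.19% of all probes were called. They ended too when any homozygous or heterozygous array was left out. With 1 array left in a label far fewer calls remained over all probes, so this does not single out these genes.

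**Figure D4:**
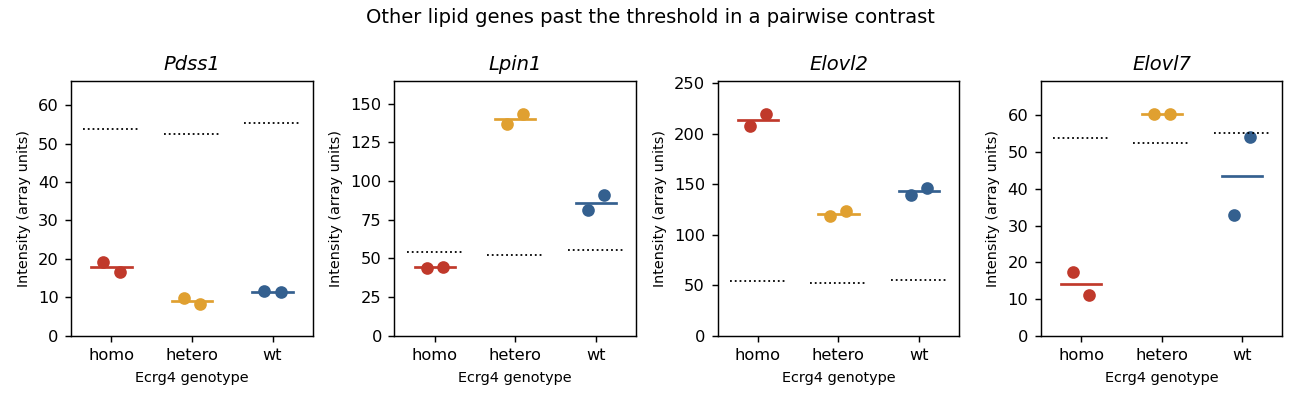
Intensity on each array (points), mean of the 2 arrays (lines) and the mean 95th percentile of olfactory receptor probes in each label (dotted) for the 4 other lipid genes past an adjusted p of 0.05 between homozygous and heterozygous arrays; axes start at 0. Pdss1 lies under the dotted level on every array, and Lpin1 and Elovl7 lie under it in homozygous arrays.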

How the data were processed

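The authors deposited 1-colour probe intensity values on a linear scale for 6 arrays, the median of each being 30; amino allyl aRNA was coupled to a dye per the labels' protocols, whose label field names biotin. Background correction and the rule for blank cells are not stated. An array had a value for 21740 to 22561 probes, and having 2 arrays per genotype limits the precision. Probe symbols were updated through synonyms in a RefSeq table of GRCm38.p6: 12620 were current, 3943 replaced, 59 ambiguous and 3 unmatched, and 6841 probes were unnamed here.

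Intensities were log2-transformed without a pseudocount. The 20434 probes without a blank were fitted with 1 coefficient per genotype in limma 3.58.1 (R 4.3.3), with 3 residual and 3.27 prior degrees of freedom. Tests were two-sided, with Benjamini-Hochberg adjustment over all tested probes and a threshold of 0.05. Errors after log2 fold changes are standard errors (n = 2 arrays each). The fit was tested on simulated data with changes in homozygous arrays, in homozygous minus wild type. It recovered 4% of changes of 0.5 log2, 30% of 1 log2 and 100% of 2 log2, and 10 of 127 calls fell on unchanged probes. Changes of up to 1 log2 were thus mostly missed among the simulated probes. The changed ones were drawn from all 20434 tested probes, of which 6849 were at least as bright as the dimmest of the 27 genes. The rates are therefore not those of the 27 genes. Where both arrays of a label lay under the olfactory receptor level, a bound of the fold was taken with them set at that level. Full values are given for genes past the threshold, the 8 with the highest F statistic and fixed regulators; others are in ranges or were added after their values were seen. Genes, lists and the olfactory receptor level were chosen with earlier results of these data known. Promoter windows came from RefSeq (GRCm38.p6). Alternatives were a pseudocount, other normalizations and priors, other probe filters, fits of fewer arrays and a replicate block.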

Additional observations from a re-analysis of the deposited data

How the results depend on the processing

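The number of the 27 genes past the threshold, 1 for homozygous against wild type, 0 for heterozygous against wild type, 0 for homozygous against heterozygous and 1 in the F test, depended on the processing. In that order it was 5, 2, 5 and 6 with a pseudocount of 16, 5, 1, 4 and 5 with dim probes left out (the F test called 10.7% of all probes then tested), 5, 2, 4 and 7 with an intensity-dependent robust prior, and 2, 0, 0 and 2 with quantile normalization or cyclic loess. Over all probes quantile normalization called 1.61% in homozygous against wild type and 3.18% in the F test, and cyclic loess 1.53% and 3.3%. Of the 27 genes 0 passed in all 4 when probes with a value in each genotype were tested, and 0 in each pair when only the arrays compared were fitted. Leaving out 1 array gave 0 to 0 in all 4 for each of the 6 arrays. Median centring and averaging the probes of a gene left the counts as they were. The cause was not tested. Over all probes, the 188 called in homozygous minus wild type became 1143, 849 and 1094 with the pseudocount, without dim probes and with the robust prior, and 1 without either homozygous array.

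The median log2 fold change of the 27 genes ranged over the fits without 1 array from -0.04 (without homozygous array 2) to 0.15 in homozygous minus wild type, 0.02 to 0.11 in heterozygous minus wild type and 0.01 to 0.13 in homozygous minus heterozygous. The last was 0.14 with quantile normalization and 0.15 with cyclic loess, against 0.05. Of 24 differences of at least 0.4 log2 among the 27 genes 0 changed sign in any alternative, and of 57 smaller ones 20 did. With the replicate number as a block 0 of the 27 genes passed in any comparison and 47 probes were called in homozygous minus wild type. Over all tested probes the difference of array 2 minus array 1 correlated between labels at 0.01, 0.02 and -0.08. Most probes read under the olfactory receptor level, so these correlations cannot tell whether arrays of the same number share more than the number.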
